A study of Drosophila melanogaster with 7 samples.

Results

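Gene expression was compared between dissected control brains of Drosophila melanogaster whose library titles carry the number 3 and those whose titles carry the number 2. The comparison uses 4 of the 7 libraries of a study that set control flies beside flies with a knockdown of circMbl, the circular RNA of the gene muscleblind (mbl). The 4 were chosen by their titles alone, as the control libraries numbered 3 and 2 that exist in both lane codes, L5 and L7, and they were matched by lane code. The question is which tissue and stress genes vary between brain preparations of one genotype. All 4 came from flies of the strain Actin-GAL4 UAS-sh8MM, in which the ubiquitous Actin-GAL4 driver expresses a short hairpin whose name stands for 8 mismatches, so the controls carry the driver and a hairpin too. A further control library titled 1 exists in L7 only. The 2 knockdown libraries, of the strain Actin-GAL4 UAS-sh-circMbl, carry the numbers 3 and 2 in lane code L2 with another numeric code, and they serve here as values beside the control comparison. All titles name day 3, but the labels do not say from what that day is counted. They state neither the sex of the flies, nor the number of brains in a library, nor what the title number stands for. Whether the L5 and L7 libraries of one number hold the same RNA is also not stated, so the spread behind each p-value may be that of library preparation alone.

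RNA was read at the polyadenylated 3' ends of transcripts by a bulk form of CEL-seq2. The 4 compared libraries held between 3732675 and 5177575 recovered reads, and all 7 between 3260649 and 5546121. Values are given as the authors' normalized counts, with L5 before L7 in each pair. Lane code separated libraries more than title number did for some transcripts: the 13 mitochondrially encoded lines summed to 8112 and 23169 normalized counts in the title 3 libraries and to 8998 and 21670 in the title 2 libraries. For that reason each title 3 library was compared with the title 2 library of its own lane code.

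The fly brain is dissected out of a head that also holds other tissues. The retina lies against the optic lobes, with photoreceptors that use rhodopsins and a Gq, phospholipase C and TRP channel cascade, and with lens and pigment cells that have transcripts of their own. Fat body, the insect counterpart of liver and adipose tissue, surrounds the brain and secretes storage and yolk proteins, while antennae, cuticle, muscle and blood cells lie close by. Heat shock genes encode chaperones whose transcripts climb quickly when cells meet heat or other protein stress.

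Title 3 libraries differed from title 2 libraries in 183 of 7264 genes tested (2.52%, limma with lane code as a covariate, adjusted p under 0.05), with 127 higher and 56 lower. The genes that were higher included those of the retina and its lens, small heat shock proteins, storage and yolk proteins of the fat body, antimicrobial peptides and several odorant-binding proteins. Among the lower genes were the oenocyte enzyme gene Cyp4g1, 4 muscle genes and the hormone gene Akh. As the background for the counts below, 1.75% of all genes tested were called higher and 0.771% lower. The lists behind those counts were chosen with earlier results of these data known, so the counts are not an independent test. Of the 127, 52 were at least 2-fold higher, and of the 56, 13 were at least 2-fold lower, while the median log2 difference over all genes tested was -0.03. The sign was the same in L5 and in L7 for each of the 183, but with 1 library per title in each lane code that is part of how the test selects them. Values of both title 3 libraries lay above both title 2 libraries for 113 of the genes called higher, and below both for 43 of those called lower. Over all genes tested, 10.6% showed the first order and 10.9% the second.

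The title 3 libraries held fewer recovered reads than the title 2 library of the same lane code, 3918134 against 4224478 in L5 and 3732675 against 5177575 in L7, and the part of depth in the calls was not tested. Without the lane term 0 genes passed (limma, 140 at an unadjusted p under 0.05; 0 by voom, 152 unadjusted), with all 7 libraries in the fit 27 passed, and with 1 of the 4 left out of that fit between 0 and 1, the 1 gene being Dro in the fits without the L5 library of either title. The fit of all 7 libraries holds the knockdown libraries as a single group. Their difference, also between title numbers, therefore enters its spread, here and in the list counts below. With scaling to the library total the split was 168 higher to 39 lower.

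**Figure D1:**
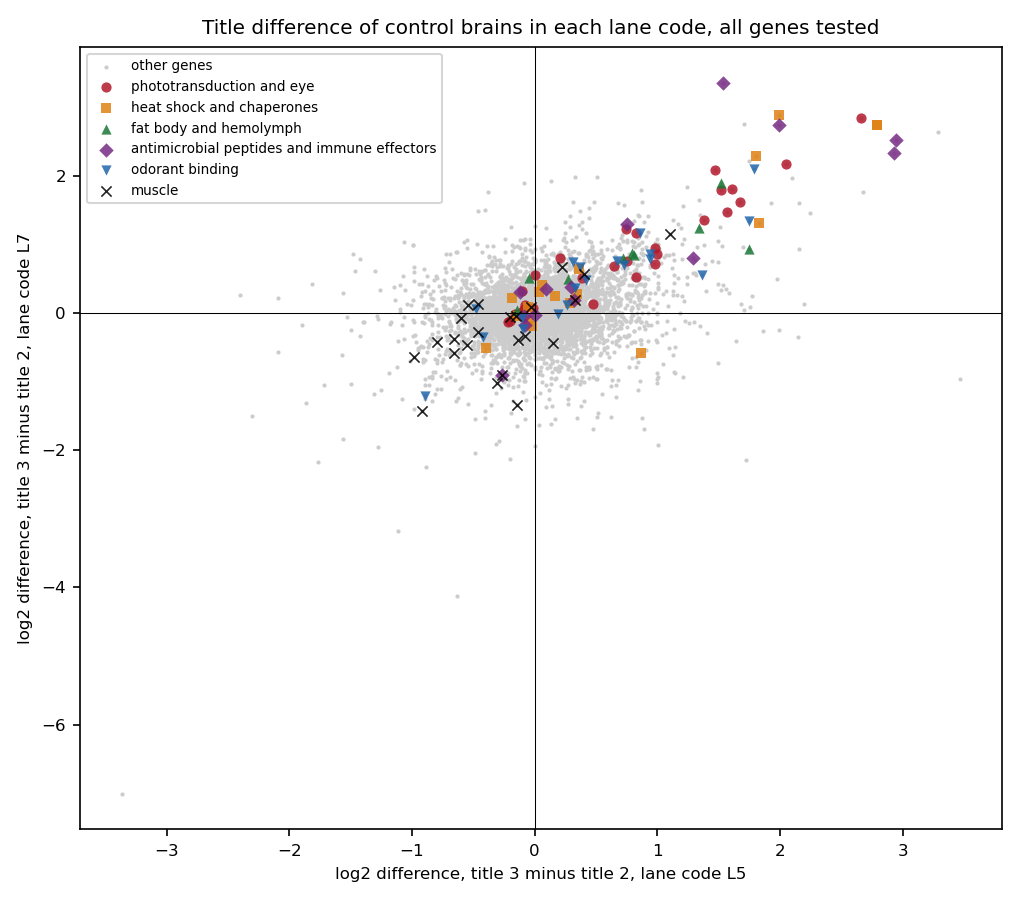
Log2 difference of title 3 minus title 2 controls in lane code L5 (horizontal axis) and in L7 (vertical axis), on the log2(value + 1) scale, with 1 point for each of the 7264 genes tested and coloured symbols for members of 6 lists. Eye, heat shock, fat body and antimicrobial genes reach the upper right, as retinin does at 2.66 and 2.84, while the point at the lower left is Cyp4g1, at -3.36 on the horizontal axis.

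Neuronal transcripts were abundant in all 4 libraries, which carry the label brain. The pan-neuronal RNA-binding protein gene elav stood at 1344 and 1650.3 normalized counts in the title 3 libraries and 1482 and 1689.9 in the title 2 libraries. Syt1, the calcium sensor of synaptic vesicle release, stood at 10123 and 10656 in title 3 and 11198 and 11379.8 in title 2. Of 18 tested genes of the neuron and synapse list 0 passed (limma, 1 at an unadjusted p under 0.05; 0 by voom; log2 differences from -0.21 to 0.03, median -0.06). Glial genes were present as well, with Gs2, the glutamine synthetase of glia, at 52876 and 61636 in title 3 and 55307 and 65812 in title 2. Of 16 glial genes 1 passed, loco, a regulator of G protein signalling, which stood at 728 and 651 in title 3 and 513 and 505 in title 2 and was 1.35-fold higher (limma, adjusted p = 0.00596).

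Eye genes were the most numerous of the lists among the genes that rose in title 3. Of 40 listed phototransduction and eye genes 32 were on usable lines and 28 passed the minimum level. Of these 28, 13 were higher in title 3, 0 were lower and 15 did not pass, with a median log2 difference of 0.72 (0.75 in L5 and 0.74 in L7). The summed level of all 32 was 18904 and 21453 normalized counts in title 3 and 13642 and 14565 in title 2, and no member was at 0 in all 4 libraries. With all 7 libraries in the fit 2 of the 28 passed, both higher in title 3. That fit counts the difference within the knockdown pair as spread, which for the 13 ran from 0.73 to 2.97 on the log2 scale. In bulk tissue fewer cells of a type and less RNA per cell cannot be told apart, and this holds for each group of marker genes below.

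The rhodopsin gene ninaE (FBgn0002940, 3R from 19886255 to 19888206 on BDGP6), which encodes the light receptor of the outer photoreceptors, stood at 1840.4 and 2072 normalized counts in the title 3 libraries and at 445 and 459 in the title 2 libraries. The groups lay far apart, and lane code hardly moved either pair. Means were 1956 ± 164 in title 3 and 452 ± 9.97 in title 2 (SD, n = 2 each), 4.31-fold apart when values were compared as log2(value + 1) (log2 difference 2.11 ± 0.11 SE, limma adjusted p = 3.34e-82). The gene was named for this comparison with its values known. A pair of opsin genes of the ultraviolet-sensitive inner photoreceptors had the same order. Rh3 stood at 166 and 215 in title 3 and 59.2 and 50.2 in title 2, and Rh4 at 76.8 and 51.5 in title 3 and 24.6 and 14.0 in title 2. Both rose, 3.42-fold and 3.26-fold (limma, adjusted p = 1.18e-20 and 1.38e-07). Rh6, an opsin of other inner photoreceptors, was near the minimum level with 13.7 and 15.7 in title 3 and 6.37 and 8.23 in title 2 and did not pass (limma, adjusted p = 0.478).

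Transcripts of lens and pigment cells of the eye rose too. The gene retinin (FBgn0040074, 3L from 16331933 to 16332789), which encodes a protein of the corneal lens surface, stood at 2224 and 2643 in title 3 and at 351 and 369 in title 2. It was 6.73-fold higher, the largest rise among the eye genes (log2 difference 2.75 ± 0.11 SE, limma adjusted p = 5.20e-138). Cpr72Ec, a cuticular protein gene of the lens, stood at 77.7 and 52.6 in title 3 and 23.7 and 16.5 in title 2, 3.13-fold higher. Pdh, a retinol dehydrogenase of pigment cells, stood at 288 and 190.2 in title 3 and 96.5 and 68.3 in title 2, 2.86-fold higher. Adjusted p-values of both were at or under 2.13e-06 in the limma test, as were those of all 13 eye genes that rose.

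Scaffold, channel and shut-off genes of phototransduction rose by smaller folds than ninaE did. The scaffold gene inaD stood at 103 and 125 in title 3 and 35.5 and 35.4 in title 2, 3.15-fold higher. Cpn, a calcium-binding protein of photoreceptors, stood at 188 and 337 in title 3 and 71.9 and 131 in title 2, 2.58-fold higher, and its L7 title 2 value lay below its L5 title 3 value, so the groups did not overlap. The light-gated channel gene trp stood at 180.2 and 141 in title 3 and 91.0 and 72.4 in title 2, and trpl at 239.7 and 426 in title 3 and 143 and 182 in title 2. These channels rose 1.95-fold and 1.98-fold, and chp, an adhesion protein of the photoreceptor membrane, 1.99-fold. The arrestin genes, whose products shut rhodopsin off, showed the smallest rises of the 13. Arr1 stood at 2563 and 2976 in title 3 and 1521 and 1759 in title 2, 1.69-fold higher. Arr2 stood at 1530.3 and 967 in title 3 and 975 and 605 in title 2, 1.58-fold higher, and was the 1 gene of the 13 whose groups overlapped across lane codes.

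Several cascade genes stood nearly level. The phospholipase C gene norpA stood at 2068 and 2412 normalized counts in title 3 and 2199.6 and 2318 in title 2, with a log2 difference of -0.02 ± 0.10 SE. For Galphaq, the G protein subunit that activates it, the values were 1337 and 1773 in title 3 and 1437 and 1751 in title 2 (-0.04 ± 0.10). The diacylglycerol kinase gene rdgA (0.03 ± 0.10) and the lipid transfer gene rdgB (0.02 ± 0.10) did not pass either. The lowest value of the list was that of santa-maria, a carotenoid uptake receptor, at -0.17 (limma, adjusted p = 0.591). Among the 15 that did not pass, rtp, the photoreceptor gene retinophilin, came closest, with 51.2 and 49.2 in title 3 and 25.5 and 29.6 in title 2 (limma, adjusted p = 0.0552).

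**Figure D2:**
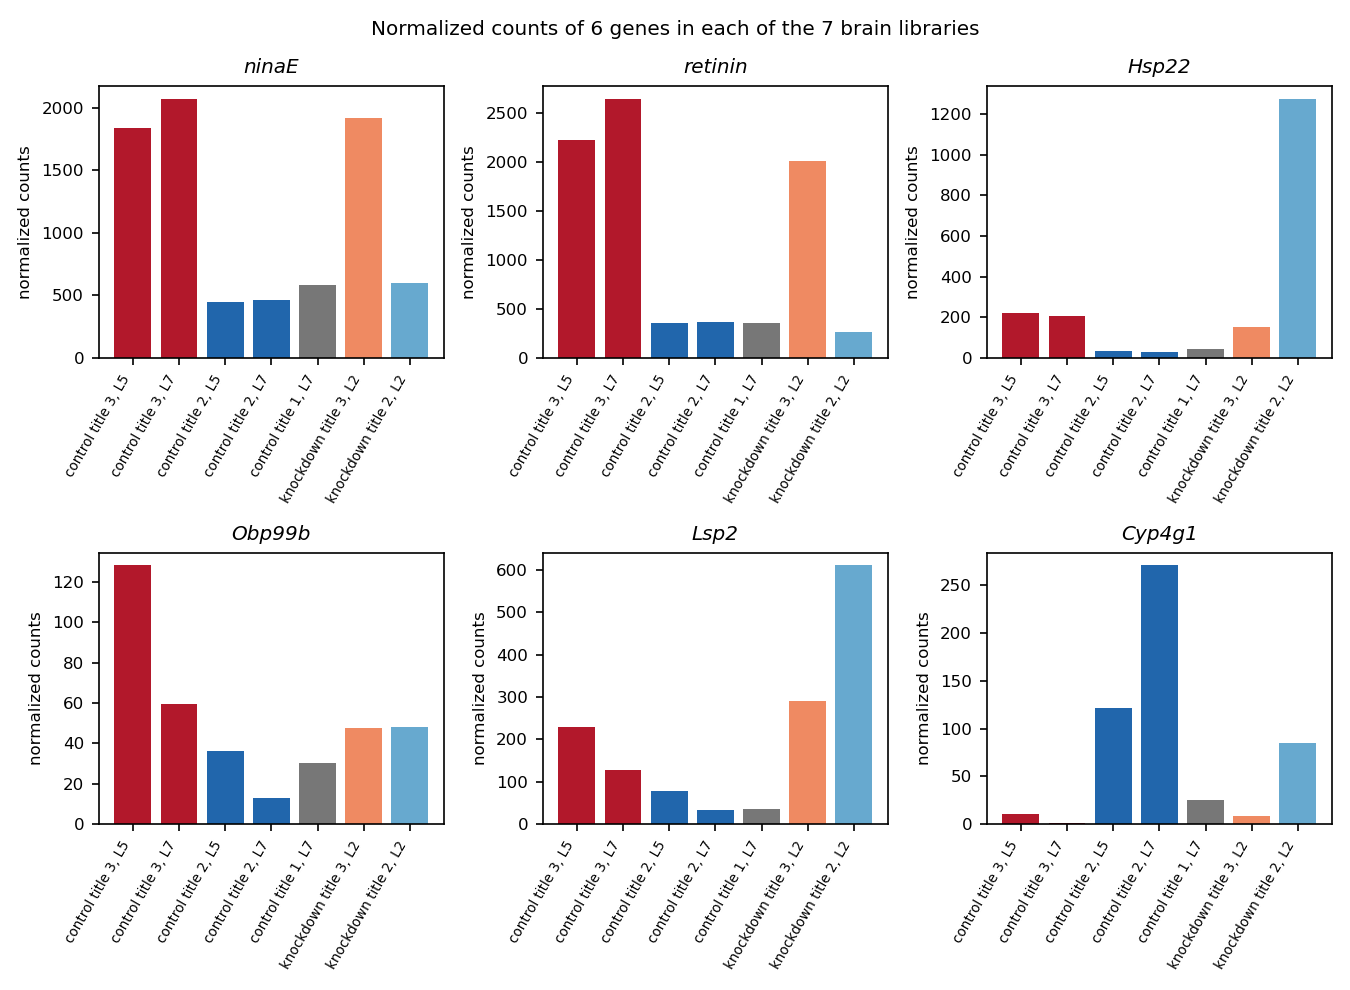
Normalized counts of 6 genes (1 panel each, linear axis from 0) in the 7 brain libraries, with title 3 controls in red, title 2 controls in blue, the title 1 control in grey and the knockdown libraries in lighter colours. Each bar is 1 library, so there are no error bars. The eye genes ninaE and retinin are high in both title 3 controls and in the title 3 knockdown library, while Hsp22 and Lsp2 are highest in the title 2 knockdown library.

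Small heat shock protein genes and members of the Hsp70 family were higher in title 3. Of 27 listed genes 26 were on usable lines and 19 passed the minimum level, of which 6 lines were higher, 0 lower and 13 did not pass (median log2 difference 0.22, against -0.03 over all genes). With all 7 libraries in the fit 0 of the 19 passed (limma, 5 higher and 1 lower at an unadjusted p under 0.05). The line of Hsp67Bb, listed as CG4456, shares its end and strand with Hsp22 and held identical values in every library, so the 6 lines stand for 5 separate measurements. Hsp22 (FBgn0001223, 3L from 9372931 to 9374964), a small heat shock protein of mitochondria named here with its values known, stood at 219.5 and 204 in title 3 and at 31.0 and 29.6 in title 2. Lane pairs were almost equal within each title, and the fold difference was 6.79 (log2 difference 2.76 ± 0.19 SE, limma adjusted p = 4.31e-43). Hsp26, another small heat shock protein gene of the same cluster on 3L, stood at 863 and 763 in title 3 and 247 and 156 in title 2, 4.11-fold higher (limma, adjusted p = 4.61e-61). Hsp23 stood at 564 and 606 in title 3 and 439 and 390.2 in title 2, a smaller rise of 1.41-fold (limma, adjusted p = 0.0011). Hsp27, below the minimum, had 6.40 and 22.4 in title 3 and 3.64 and 3.29 in title 2, with a wide gap between its 2 title 3 values.

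The Hsp70 family was measured at low counts. Hsp68 stood at 28.4 and 52.6 in title 3 and 7.28 and 20.6 in title 2, 2.97-fold higher (limma, adjusted p = 0.000327). Hsp70Bc rested on 35 and 22 reads in title 3 and 8 and 3 in title 2, a ratio of 6.03 (95% exact binomial interval of the summed reads 3.13 to 12.8, counting error only; limma adjusted p = 1.64e-05). Copies of Hsp70 are nearly alike in sequence, and how the counting shared reads among them is not stated, so single copies are uncertain. Hsp70Aa and Hsp70Ab, below the minimum, pointed the same way by value, Hsp70Aa with 12.8 and 19.0 in title 3 and 1.82 and 2.47 in title 2 and Hsp70Ab with 17.4 and 11.2 in title 3 and 4.55 and 1.65 in title 2. The Hsp90 gene Hsp83, at 1323 and 1514 in title 3 and 1178 and 1282 in title 2, did not pass (0.20 ± 0.10, limma adjusted p = 0.455). Nor did the listed cognate genes Hsc70-1, Hsc70-3, Hsc70-4 and Hsc70-5, of which Hsc70-4 stood at 5147 and 7971 in title 3 and 5035 and 6428 in title 2. The Hsp40 gene DnaJ-1 did not pass either (0.31, limma adjusted p = 0.147). Hsc70Cb, an Hsp110-type chaperone gene outside the list and picked after its values were seen, did rise, with 424 and 380.4 in title 3 and 352 and 258 in title 2 (1.33-fold, limma adjusted p = 0.0364). Hsf, which encodes the transcription factor of the heat shock response, had a log2 difference of 0.01 ± 0.15 SE. The eye and fat body genes moved with these lines, and their part in the result was not tested.

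Storage and yolk protein genes of the fat body rose in title 3. Of 17 listed genes 12 were on usable lines and 9 passed the minimum, of which 5 were higher, 0 lower and 4 did not pass (median log2 difference 0.82, with 0.80 in L5 and 0.84 in L7). With all 7 libraries in the fit all 5 passed. In the knockdown pair, which adds to the spread of that fit, their log2 differences ran from -1.07 for Lsp2 to -0.14 for Yp1. The summed level of the 12 was 36407 and 27496 normalized counts in title 3 and 21192 and 15444 in title 2, most of it from the yolk protein genes. Lsp2 (FBgn0002565, 3L from 12129393 to 12131869), a hemolymph storage protein named here with its values known, stood at 229 and 128 in title 3 and 79.2 and 33.7 in title 2. The L5 library was the higher of each pair, the groups did not overlap, and the gene was 3.25-fold higher (log2 difference 1.70 ± 0.18 SE, limma adjusted p = 5.64e-18). The feeding-responsive fat body gene fit stood at 65.9 and 75.0 in title 3 and 25.5 and 31.3 in title 2, 2.44-fold higher (limma, adjusted p = 2.14e-05). The glucosidase gene tobi differed by 1.34 on the log2 scale and missed the threshold (limma, adjusted p = 0.123). Larval genes of the same tissue, Lsp1alpha, Lsp1gamma and Fbp1, were at or under 4.48 normalized counts in all 4 libraries.

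The 3 yolk protein genes, made by fat body and ovary of females, moved with these. Yp1 stood at 15708 and 9267 in title 3 and 9045 and 5056 in title 2, Yp2 at 15163 and 13319 in title 3 and 8657 and 7442 in title 2, and Yp3 at 4740.0 and 4131 in title 3 and 2877 and 2376 in title 2. They were 1.78-fold, 1.77-fold and 1.69-fold higher (limma, adjusted p = 3.10e-11, 1.58e-10 and 7.75e-11). Yp1 followed lane code as well as title number, and its L7 title 3 value lay just above its L5 title 2 value. For roX1, a noncoding RNA of male dosage compensation, the title 3 libraries held 31094 and 47361 and the title 2 libraries 43278 and 46974, and its log2 difference of -0.23 ± 0.14 SE missed the threshold (limma, adjusted p = 0.588). The second such RNA, roX2, had 625 and 856 in title 3 and 686 and 891 in title 2 and missed it too (-0.10 ± 0.11, limma adjusted p = 0.839). Of the 11 tested genes of the sex composition list 5 were higher, the 3 yolk genes and fit, which are also on the fat body list, and sxe2, a lipase-like gene, at 97.0 and 95.1 in title 3 and 58.3 and 31.3 in title 2 (2.22-fold). Sxl, tra, dsx and msl-2, regulators of sex determination and dosage compensation, had log2 differences from -0.46 to 0.07 and none of the 4 passed.

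Odorant-binding protein genes, which are made mostly by support cells of antennae and other sense organs, moved in part. Of 49 on usable lines 19 were tested, of which 5 were higher, 1 was lower and 13 did not pass (median log2 difference 0.52), while 11 others were at 0 in all 4 libraries. With all 7 libraries in the fit 2 passed, both higher. Obp99b (FBgn0039685, 3R from 29716254 to 29716896), named here with its values known, stood at 128 and 59.3 in title 3 and 36.4 and 13.2 in title 2. Its L5 value was more than that of L7 in each title, the groups did not overlap, and it was 3.83-fold higher (log2 difference 1.94 ± 0.25 SE, limma adjusted p = 2.18e-12). Obp28a (42.1 and 34.7 in title 3, 11.8 and 13.2 in title 2) and Obp69a (60.4 and 43.6 in title 3, 32.8 and 18.9 in title 2) were 2.91-fold and 2.02-fold higher at low counts. Obp19d stood at 696 and 650.1 in title 3 and 419 and 402 in title 2, 1.64-fold higher (limma, adjusted p = 9.04e-08). Obp83a stood at 251 and 163 in title 3 and 130.2 and 94.7 in title 2, 1.82-fold higher (limma, adjusted p = 3.66e-06). A single member passed in the other direction: Obp49a, known from taste organs, had 40.2 and 25.7 in title 3 and 75.6 and 60.9 in title 2, 2.07-fold lower (limma, adjusted p = 0.000972). Obp44a, the family member with the highest normalized counts here, with 13972 and 11614 in title 3 and 11665 and 10739 in title 2, did not pass (0.19 ± 0.12, adjusted p = 0.599), and it dominates the family's summed level. Antennal genes a10 and Os-C, picked after their values were seen, were higher as well. For a10 the values were 287 and 249.5 in title 3 and 142 and 139.9 in title 2 (1.89-fold, limma adjusted p = 2.51e-08), and for Os-C 144 and 159 in title 3 and 80.1 and 128 in title 2 (1.48-fold, limma adjusted p = 0.0247).

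Several antimicrobial peptide genes, most of them known targets of the Imd immune pathway, were higher in title 3 at low counts. Of 14 tested immune effector genes 5 were higher, 0 lower and 9 did not pass (median log2 difference 0.30). With all 7 libraries in the fit 2 passed, both higher. Dro, the drosocin gene, stood at 73.2 and 85.03 in title 3 and 24.6 and 7.41 in title 2, 5.45-fold higher (log2 difference 2.45 ± 0.28 SE, limma adjusted p = 1.67e-15). Its difference was 1.54 in L5 and 3.36 in L7, the wider gap being in L7. The others that passed, Mtk apart, rested on few reads. DptB, a diptericin gene, had 15 and 21 reads in title 3 and 1 and 4 in title 2, a ratio of 8.38 (95% exact binomial interval 3.28 to 27.4). AttB, an attacin gene, had 30 and 11 reads in title 3 and 3 and 2 in title 2, a ratio of 9.55 (3.78 to 31.0), and DptA had 31 and 10 in title 3 and 7 and 1 in title 2, a ratio of 5.97 (2.76 to 14.7). The metchnikowin gene Mtk was 2.04-fold higher, with 75.9 and 25.7 in title 3 and 44.6 and 9.88 in title 2, and its groups overlapped across lane codes. Drs, the Toll-responsive drosomycin gene, stood at 216 and 166 in title 3 and 229 and 188 in title 2 and did not pass (-0.13 ± 0.14, adjusted p = 0.825). The bomanin genes BomS1, BomS2 and BomS3, listed as IM1, IM2 and IM3, did not pass either, with log2 differences of 0.26, 0.33 and 0.10. Other immune-induced genes, outside the list and picked after their values were seen, did rise: IM4 (Dso1, 1.47-fold, limma adjusted p = 4.12e-05), IM33 (1.6-fold, adjusted p = 2.14e-05) and CG18107 (BomS4, 1.5-fold, adjusted p = 0.00196). Blood cell markers gave 0 calls among 9 tested (limma, 0 at an unadjusted p under 0.05; 0 by voom; median log2 difference -0.03). Of these markers, Hml stood at 77.7 and 163 in title 3 and 63.7 and 146 in title 2.

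**Figure D3:**
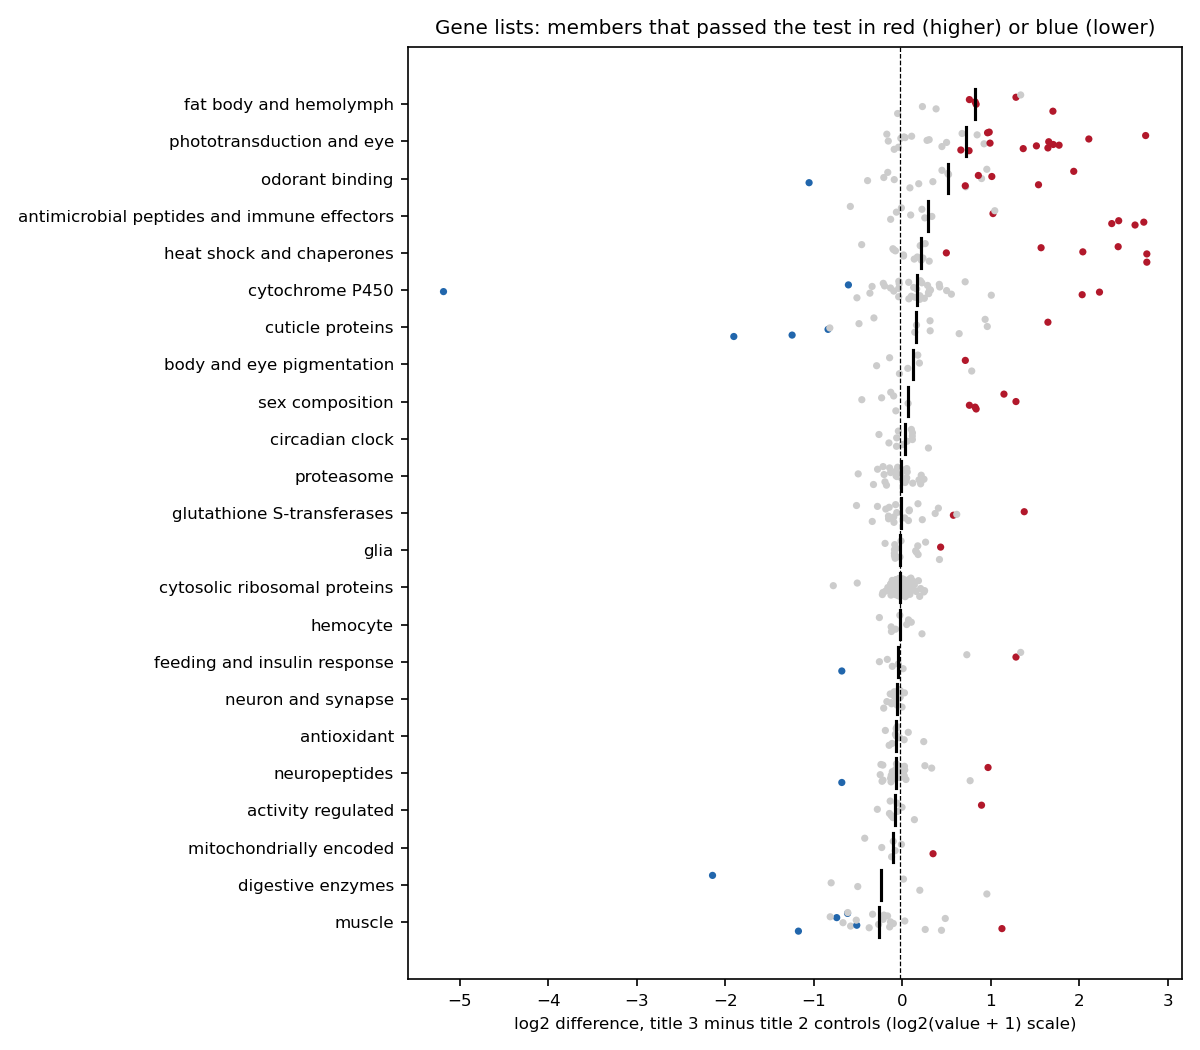
Log2 difference of title 3 minus title 2 controls (horizontal axis) for every tested member of 23 gene lists, with the median of each list as a black bar and that of all genes tested as a dashed line at -0.03. Members that passed the limma test are red where higher and blue where lower in title 3, and the medians run from -0.27 for muscle to 0.82 for fat body and hemolymph.

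The largest fall was that of Cyp4g1 (FBgn0010019, X from 467057 to 469335), a cytochrome P450 of oenocytes that completes the synthesis of cuticular hydrocarbons. It stood at 10.98 and 1.12 normalized counts in title 3 and at 122 and 271 in title 2. These are 12 and 1 reads in title 3 and 134 and 329 in title 2, a ratio of the summed reads, scaled for depth, of 0.0327 (95% exact binomial interval 0.0173 to 0.0565, counting error only), which is 30.6-fold lower. The fitted log2 difference was -5.18 ± 0.30 SE (limma, adjusted p = 1.26e-63). It was -3.36 in L5 and -7.003 in L7, where 1 title 3 read sets it, so the size of the fall depends on the lane code. Among other P450 genes Cyp6g2 was lower, with 135 and 235 in title 3 and 245 and 303 in title 2, while Cyp313a1 was 4.09-fold higher and Cyp4e3 rose on few reads. Of the 37 tested members of that family 33 did not pass.

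A few muscle genes fell in title 3. Of 23 tested 4 were lower, 1 was higher and 18 did not pass (median log2 difference -0.27, with -0.27 in L5 and -0.33 in L7), and with all 7 libraries in the fit 0 passed (limma, 2 higher and 5 lower at an unadjusted p under 0.05). The troponin T gene up stood at 275 and 417 in title 3 and 434 and 624 in title 2, 1.53-fold lower (limma, adjusted p = 2.18e-05). The myosin light chain gene Mlc2 stood at 326 and 336 in title 3 and 478 and 467 in title 2, 1.43-fold lower (limma, adjusted p = 0.00128). Both pairs of Mlc2 were nearly equal across lane codes, whereas the actin gene Act57B, at 55.8 and 139.9 in title 3 and 107 and 377 in title 2, followed lane code as much as title number and its groups overlapped (2.25-fold lower). The troponin C gene TpnC73F was 1.67-fold lower (limma, adjusted p = 0.0413), but its log2 difference was -0.14 in L5 and -1.34 in L7. Its call was lost under quantile normalization, scaling to the library total and voom (adjusted p = 0.101, 0.136 and 0.0946), among other settings. The flight muscle actin gene Act88F went the other way, with 40.2 and 61.5 in title 3 and 18.2 and 27.2 in title 2, 2.18-fold higher (limma, adjusted p = 0.00358). The muscle myosin heavy chain gene Mhc stood at 321 and 259.6 in title 3 and 289.5 and 351 in title 2 and did not pass (limma, adjusted p = 0.771). Mp20, a calponin-like muscle protein gene that is not on the list, was 1.61-fold lower. Across the list the summed level was 4584 and 5896 in title 3 and 5360 and 6689 in title 2.

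Cuticle protein genes moved both ways. Of 14 tested 3 were lower and 1 was higher, with a median log2 difference of 0.15, and with all 7 libraries in the fit 0 passed (limma, 3 higher and 3 lower at an unadjusted p under 0.05). The higher one was the lens gene Cpr72Ec described with the eye genes. Cpr49Ae stood at 114 and 143 in title 3 and 201 and 262 in title 2, 1.79-fold lower. Vajk3 and Vajk2, listed as CG16884 and CG16885, were 3.74-fold and 2.37-fold lower. Akh, the adipokinetic hormone gene of the corpora cardiaca gland, stood at 218 and 178 in title 3 and 333 and 300.4 in title 2, 1.6-fold lower (limma, adjusted p = 3.14e-05). Of 32 tested neuropeptide genes 1 other passed, Nplp3, which stood at 1976 and 1898 in title 3 and 981 and 996 in title 2 and was 1.96-fold higher (limma, adjusted p = 6.07e-18). The vesicular transporter gene prt stood at 54.9 and 36.9 in title 3 and 91.0 and 73.3 in title 2, 1.8-fold lower. Further falls by the naming rule were sick (1.62-fold), Arpc1, a subunit of the actin-nucleating Arp complex (1.57-fold), and mesh, a junction protein gene (1.53-fold, limma adjusted p = 0.0437). The call of the gene mesh was lost under quantile normalization, scaling to the library total and voom (adjusted p = 0.0617, 0.116 and 0.0699), among other settings. Of the named rises not yet given, GstE9, a glutathione S-transferase gene, was 2.6-fold higher and dpy, a giant extracellular matrix protein gene, 2.36-fold higher.

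Housekeeping and signalling lists held few or no calls. Of 72 cytosolic ribosomal protein genes, 29 proteasome genes, 12 clock genes and 11 antioxidant genes 0 passed limma or voom, with median log2 differences of -0.02, -0.01, 0.03 and -0.07. At an unadjusted p under 0.05 limma counted 3 higher and 3 lower among the ribosomal protein genes and 0 in the other lists. Of 22 glutathione S-transferase genes 2 were higher, GstE9 and GstE3. Of 10 activity-regulated genes 1 was higher, the repressor gene h, and the capsid gene Arc1 did not pass (0.14 ± 0.11). Of 8 pigmentation genes 1 was higher, the gene v for an enzyme of ommochrome synthesis (1.64-fold, limma adjusted p = 0.0342), a call lost under quantile normalization (adjusted p = 0.0915) and with all 7 libraries (0.289). Of 9 feeding and insulin response genes fit was higher and Akh lower. A line named Pepck matched no ID and was not counted in that list, which names Pepck1. Picked after its values were seen, it was 1.99-fold higher (limma, adjusted p = 4.83e-17), with 965 and 1122 in title 3 and 490 and 556 in title 2. Of 7 mitochondrially encoded lines COX1 was higher (1.27-fold, limma adjusted p = 0.0326), and of 6 digestive enzyme genes betaTry was lower on 10 and 1 reads in title 3 and 23 and 22 in title 2 (log2 difference -1.11 in L5 and -3.17 in L7). The host gene of the targeted circle, mbl, stood at 3602 and 3341 in title 3 and 4122 and 3430.0 in title 2 and did not pass (-0.12 ± 0.10, limma adjusted p = 0.771).

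The knockdown libraries, which share no library with the control comparison, carry the same 2 numbers with 1 library each, so their difference has no test. Of the 127 genes higher in title 3 controls, 83 (65.4%) were also higher in the knockdown library titled 3 than in the one titled 2, against 48.4% of all genes tested. Of the 56 lower genes 26 (46.4%) were lower in the knockdown library titled 3, against 51.6% of all genes tested. All 13 eye genes that rose in controls were higher in the knockdown library titled 3, with log2 differences from 0.73 to 2.97. The rhodopsin gene ninaE stood at 1919.6 in the title 3 and 599 in the title 2 knockdown library, and retinin at 2012 in title 3 and 266 in title 2. Heat shock genes had the opposite order, since the title 2 knockdown library held the higher values. Hsp22 stood at 153 in the title 3 and 1275 in the title 2 knockdown library, and Hsp26 at 631 in title 3 and 4953 in title 2. None of the 6 heat shock lines called in controls was higher in the title 3 knockdown library. Fat body genes had the same order with smaller gaps. None of the 5 called members was higher in title 3, with Lsp2 at 291 in title 3 and 611 in title 2. The yolk genes were nearly level, with log2 differences of -0.14 for Yp1, -0.22 for Yp2 and -0.16 for Yp3. The median of the fat body list was -0.14, and that of the heat shock list -0.58. Obp99b was level at 47.5 in title 3 and 48.1 in title 2, and Cyp4g1 kept the order of the controls at 8.53 in title 3 and 84.5 in title 2. Muscle genes were higher in the title 3 knockdown library for 19 of 23 tested members. The labels do not say that a number stands for the same thing in both genotypes.

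**Figure D4:**
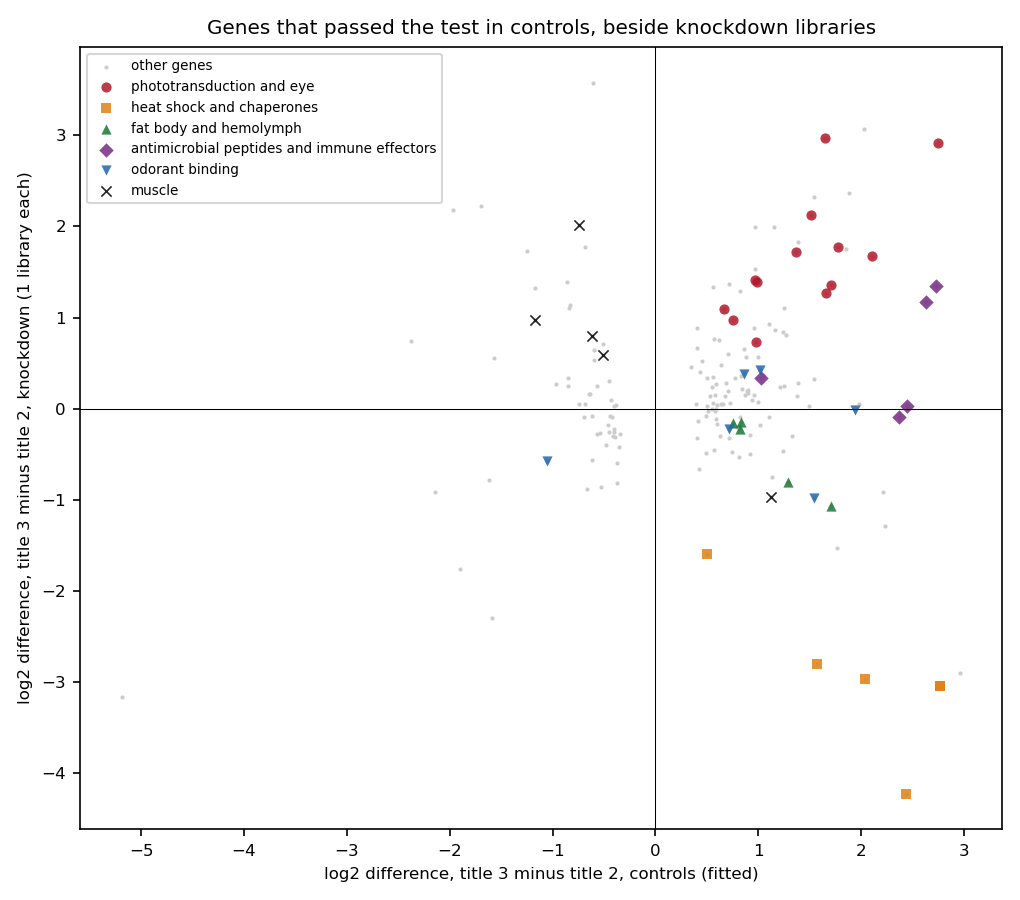
Fitted log2 difference of title 3 minus title 2 in controls (horizontal axis) and the difference between the 2 knockdown libraries of the same numbers (vertical axis, 1 library each), for the 183 genes that passed in controls. All 13 eye genes lie above the horizontal line and all 6 heat shock lines below it, where Hsp22 is at -3.05 and ninaE at 1.68.

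The control library titled 1, in L7, can be set beside the other L7 controls as a value only. Its ninaE level of 585 and retinin level of 359 lay near the title 2 values, and Hsp22 did so at 43.6 and Lsp2 at 35.0. Obp99b, at 30.3, lay between the L7 value of title 2 (13.2) and that of title 3 (59.3). Of 28 tested eye genes 21 were lower in it than in the L7 title 2 library, as were 3402 of all 7264 genes tested. Antennal genes stood apart in this library, with a10 at 3.11, Os-C at 6.22, Obp83a at 10.9 and Obp19d at 59.9. The median log2 difference of the odorant-binding list against the L7 title 2 library was -1.79, and over all genes it was 0.02. Immune genes were high in it, with Drs at 1171 and BomS1 at 1155, and Dro at 114 was above all 4 compared libraries. Cyp4g1, at 24.9, lay between the 2 titles.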

How the data were processed

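Brains were dissected in cold buffer, RNA was extracted with Trizol and treated with DNase, and libraries followed CEL-seq2, per the labels' protocols. The submitters' processing notes name STAR and the build dm6. How reads were counted, with which annotation and on which strand, is not given here. Values deposited by the authors are normalized counts, treated as a signal. In 14476 intact lines 100% of values above 0 were whole multiples of 1 step per library (within 0.01 of a read), which gave the recovered reads. Left out were a misplaced stretch of 2139 lines, 1 line with a damaged name and 402 columns that no sample's labels match. Symbols were matched to IDs by current symbol (11208) or synonym (3150), with 118 unmatched, and positions are from Ensembl BDGP6, the dm6 assembly. No sequence table was used here.

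Genes averaging 10 or more in the 4 libraries were fitted as log2(value + 1) on title number and lane code (limma 3.58.1, R 4.3.3, eBayes with trend, Benjamini-Hochberg over 7264 genes, threshold 0.05), which leaves 1 residual degree of freedom per gene. The spread then comes wholly from the trend over genes, so an SE follows level and not how far a gene's lane codes disagree. An exact permutation test of 2 against 2 libraries cannot go below p = 0.333. Folds come from log2(value + 1), and the added 1 shrinks the difference of low genes within each lane code. The fitted fold averages the lane codes and can still exceed the ratio of the summed reads. It did so for the falls of Cyp4g1 (36.3 against 30.6) and betaTry (4.42 against 3.51). Lane code was taken as a pairing because the titles give it, and the deviations of same-lane libraries correlated across genes (r = 0.68). Members, lists and tests were chosen with earlier results of these data known. Named genes were the 4 given with the comparison, the 12 largest rises and 12 largest falls past the test (mean of at least 50, same sign in both lane codes, no overlap, no bare CG or CR symbols, of which 73 passed), up to 4 members per list with the smallest p, the yolk and roX genes, and mbl. Counts were simulated for 7264 genes from the means of each lane code, with an assumed spread and the same shift in both lane codes. In them the fit found 97.3% of genes shifted 4-fold, 83.6% at 2-fold and 33.7% at 1.5-fold. That spread was not estimated from these libraries, so the rates may not hold for them. Alternatives tried were the lane term, the pseudocount, the minimum level, scaling, voom on recovered reads, all 7 libraries and leaving libraries out.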

Additional observations from a re-analysis of the deposited data

Results flagged for a closer look

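Of the 53 named genes that passed in controls, 27 differed in 1 direction in both control lane codes and in the opposite direction between the knockdown libraries of the same numbers. Over all genes tested 48.4% were higher and 51.6% lower in the knockdown library titled 3, and 27 of 53 lies near those shares. Among all called genes, 65.4% of the 127 higher and 46.4% of the 56 lower kept the control direction in the knockdown pair. Each knockdown number is 1 library, so the difference between the genotypes was not tested, and several of the knockdown differences are close to 0. The values below are log2 differences of the title 3 minus the title 2 knockdown library. Among the heat shock lines, all higher in title 3 controls, Hsp22 and CG4456, which hold the same reads, gave -3.05, Hsp26 gave -2.97 and Hsp70Bc -4.22. Fat body and yolk genes, also higher in title 3 controls, gave -1.07 for Lsp2, -0.80 for fit, -0.14 for Yp1, -0.22 for Yp2 and -0.16 for Yp3. Odorant-binding genes gave -0.0174 for Obp99b, -0.98 for Obp28a and -0.22 for Obp19d. Other genes higher in title 3 controls gave -0.97 for Act88F, -0.0899 for DptA, -1.29 for Cyp4e3 and -0.32 for v.

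Those of the 27 that were lower in title 3 controls had positive values in the knockdown pair. Muscle genes gave 0.80 for up, 2.01 for TpnC73F, 0.59 for Mlc2, 0.98 for Act57B and 0.0479 for Mp20. Cuticle genes gave 1.10 for Cpr49Ae and 1.72 for Vajk2, listed as CG16885. The values were 1.77 for Akh, 3.58 for Cyp6g2, 0.33 for prt and 0.16 for Arpc1. Akh stood at 469 in the title 3 and 136 in the title 2 knockdown library, and Cyp6g2 at 368 in title 3 and 29.9 in title 2. Numeric code, lane code and genotype cannot be told apart between the control and knockdown pairs.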

How the results depend on the processing

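The count of 183 genes (127 higher, 56 lower) stayed within 1.5 times under a pseudocount of 5, a mean of at least 50, quantile normalization, voom and scaling to the library total (143 to 207). Of the genes called by voom 172 were among the 183. Without the lane term, the fit with no replicate block, 0 passed (0 higher, 0 lower). With no filter 34 passed (29 higher, 5 lower). With all 7 libraries 27 passed (22 higher, 5 lower), all 27 among the 183. In that fit the knockdown pair is a single group, and the difference within it enters the spread. Leaving out 1 library within that fit gave 0 to 1 gene (0 to 1 higher, 0 to 0 lower); its 1 residual degree of freedom then comes from the knockdown pair, whose 2 libraries carry different title numbers, and a lone library is assumed to vary as they do. Among the 56 named genes followed, the difference of the gene roX1, not called, turned to 0.00638 under quantile normalization and ranged from -0.477 to 0.0118 when 1 library was left out. No other gene of the 56 changed direction in any of these fits. Genes named only from a list were followed only if called, and each of the 183 called had the same sign in both lane codes. For those genes a steady direction across lane codes was thus fixed by the choice. Some named genes that were not followed differed in sign, such as srp (-0.99 in L5, 0.47 in L7) and ND5 (-1.46 in L5, 0.615 in L7). In the main fit, with 2 libraries a title, p-values and SEs rest on a spread set by level across all genes. They do not measure the spread of the single gene. TpnC73F has an SE of 0.22, though its lane codes gave -0.14 and -1.34. voom and scaling to the library total were chosen after the data were seen. The planned edgeR and DESeq2 fits were not run, because the damaged lines leave the deposited columns short of a whole count table. Counting error limits DptB and AttB (5 reads in title 2), DptA and Cyp4e3 (8) and Hsp70Bc (11).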
